A study of Arabidopsis thaliana with 58 samples.

Results

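The methylation of the CG sites in the *FWA* tandem repeat was examined site by site in 13 conditions of *Arabidopsis thaliana*. The members are the CG cytosines of the minus strand in the amplified stretches of the 2 repeat copies, chr4:13038356-13038499 for copy 1 and chr4:13038568-13038695 for copy 2 (TAIR10), that had at least 10 reads in every file. This rule found 11 CG sites, 5 in copy 1 and 6 in copy 2, among 101 cytosines of any context and 21 CG cytosines that reached 10 reads in all 47 libraries. The rule used position, context and read number but no methylation value. The level of a site is the share of reads with C among reads with C or T, in percent, after bisulfite has converted unmethylated cytosine to a base read as T.

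*FWA* encodes a homeodomain transcription factor that delays flowering when it is expressed. Its promoter and first exons lie in a tandem repeat, and CG methylation of this repeat, copied at each replication by MET1, keeps the gene silent in wild-type leaves. The methylation is lost in *fwa* epialleles without any change in sequence. ROS1, DML2 and DML3 are DNA glycosylases that excise 5-methylcytosine, RDR6 makes double-stranded RNA in transgene silencing, and SDG2 places H3K4me3, a mark of active promoters.

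All libraries were BS-PCR-seq libraries, in which PCR products of bisulfite-treated DNA are sequenced, from leaves of plants 4 to 5 weeks old in the Columbia-0 ecotype. Controls were Col-0 (n = 3), the unmethylated epiallele *fwa* (n = 3), the triple demethylase mutant *rdd* (*ros1 dml2 dml3*, n = 2), *rdr6* (n = 2) and *fwa rdr6* (n = 1, so its values have no replicate error). SDG2cd-ZF, the catalytic domain of SDG2 fused to the zinc finger ZF108 that was designed for *FWA* and driven by the UBQ10 promoter, was present in 8 lines in Col-0, 8 in *rdd* and 2 in *rdr6*. SDG2cd(H1866K)-ZF, the same fusion with a missense mutation meant to remove the catalytic activity, was present in 4 plants in Col-0. SunTag-SDG2cd, in which guided dCas9 carries peptide repeats that recruit an antibody fused to SDG2cd, was present in 2 plants in Col-0 and 2 in *rdr6*. The reverse experiment used *fwa rdr6* plants with dCas9-MQ1v (n = 4), a variant of a bacterial CG methyltransferase fused to dCas9, or with TRBIP1-dCas9-MQ1v (n = 4), to which TRBIP1, a protein that brings in the H3K4me3 demethylase JMJ14, was added. The labels give lines or replicate numbers but not the generation, and nothing in them says that replicates of an untransformed genotype were grown apart, so p-values measure the spread between these samples. A leaf is a mixture of cells, and fewer methylated cells cannot be told apart from a lower level in each cell.

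*FWA* (AT4G25530) is annotated on the plus strand from 13038360 to 13042464, and its first coding base is 13039312. In copy 1, sites 13038361, 13038364 and 13038385 lie 1, 4 and 25 bp past the annotated start in exon 1, and 13038468 and 13038476 lie at 108 and 116 bp in intron 1. In copy 2, sites 13038575, 13038582, 13038596 and 13038606 lie at 215, 222, 236 and 246 bp in exon 2, and 13038678 and 13038686 lie at 318 and 326 bp in intron 2. Both exons are 5′ UTR. An alignment put 4 pairs of these CG sites at the same place of the copies, namely 13038364 with 13038575, 13038385 with 13038596, 13038468 with 13038678, and 13038476 with 13038686. Site 13038361 is a CG only in copy 1, and 13038582 and 13038606 are CGs only in copy 2. Of 13 CGs of the reference in these stretches, 2 were not among the members.

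The sequences around the sites show what the copies share. They are given 5′ to 3′ on the plus strand, read from the RefSeq assembly TAIR10.1, with the measured CGs in capitals and the rest in lower case. The first window holds the starts of the stretches, with 3 differences between the copies.
Copy 1, chr4:13038354-13038377: tacgagCGcCGctctagggttttt
Copy 2, chr4:13038565-13038588: tacgagcacCGctttaCGgttttt
The second window holds the inner exon sites, with 2 differences.
Copy 1, chr4:13038378-13038401: gcttttCGccattggtccaagtgc
Copy 2, chr4:13038589-13038612: gcttttCGacattggtCGaagtgc
The third window holds both intron sites and is identical in the copies, so that differences at these pairs are differences at the same local sequence.
Copy 1, chr4:13038461-13038482: ttcttaCGatttatCGatttgt
Copy 2, chr4:13038671-13038692: ttcttaCGatttatCGatttgt
Over the 128 aligned bases that both stretches cover, the copies had 6 substitutions and 1 gap (94.6% identity). If no cytosine of the minus strand were methylated, 4 substitutions and the gap would remain after conversion. No member lies under a primer. Each copy was amplified as its own PCR product with its own primers. A difference between the copies therefore cannot be told apart from a difference between the PCR products. The reverse primer of copy 2 matches copy 1 at 13038486-13038524 with 2 mismatches, the closest second match of the 4 repeat primers, and its part in the values was not tested.

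**Figure D1:**
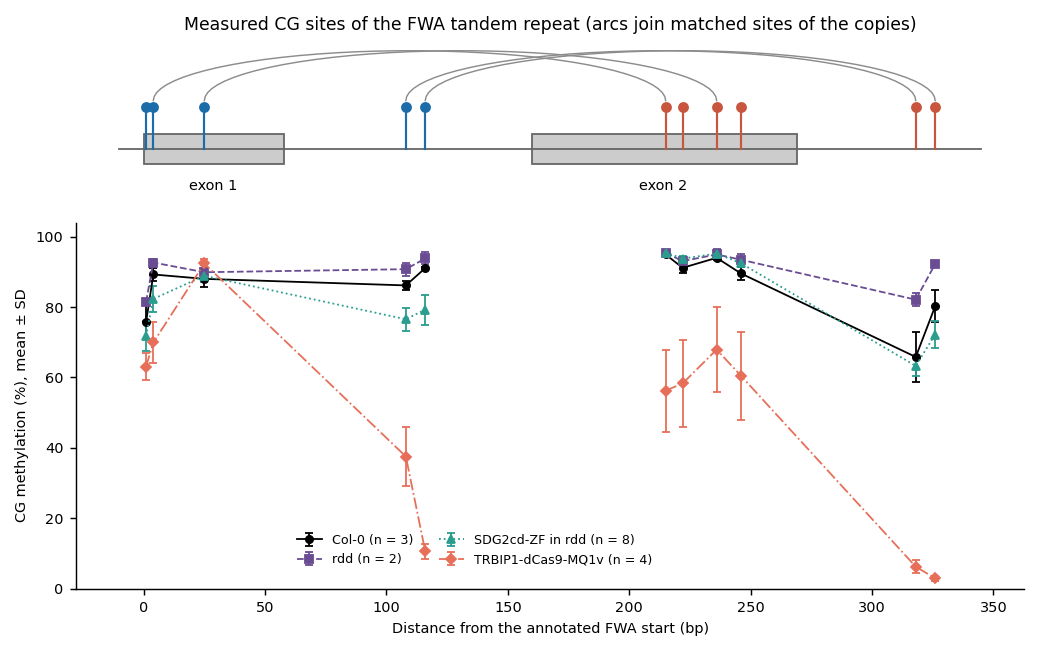
The upper part maps the 11 measured CG sites (blue copy 1, red copy 2) by distance from the annotated FWA start in bp, with exons as boxes and arcs between matched sites. The lower part gives the mean ± SD of the level in percent for Col-0 (n = 3), rdd (n = 2), SDG2cd-ZF in rdd (n = 8) and TRBIP1-dCas9-MQ1v (n = 4), and in all 4 the last 2 sites of copy 2 lie below its first 4.

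Depth at the members ranged from 4479 to 62923 reads over 39 libraries of a first set and from 48722 to 1316172 over 8 libraries of a second set. The second set holds all SDG2cd(H1866K)-ZF plants, 2 Col-0 and 2 *fwa* libraries, and its deposited protocol text differs. The widest 95% Wilson interval at any member, in SDG2cd-ZF in *rdd* line 30 at 13038361, ran from 75.9% to 78.2%. Such intervals cover counting error only, since reads of a PCR product carry no molecular identifier and several can come from the same molecule. The copy level below is the unweighted mean over the CG sites of a copy.

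In Col-0 the mean levels of the copies over all their CG sites were nearly equal, and this hid opposite differences along the repeat. Copy 1 had 88.0% in the library of the first set and 83.9% and 86.2% in those of the second, with a mean of 86.0% ± 2.07 (SD, n = 3). Copy 2 had 87.0%, 83.2% and 87.7% in the same order, with a mean of 85.95% ± 2.44 (SD, n = 3). The difference copy 2 minus copy 1 was −0.977, −0.730 and 1.44 percentage points, so by this summary the libraries did not share a direction. On the 4 matched sites alone the mean difference was −4.89 points, so the near equality rested on the sites without a match.

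The exon sites of copy 2 were higher than their matches in copy 1, and the intron sites were lower, in 3 of 3 Col-0 libraries. At 13038575 the level was 94.8%, 94.5% and 95.5%, against 91.0%, 87.2% and 89.6% at 13038364, a mean difference of 5.68 ± 1.73 percentage points (SD, n = 3). At 13038596 it was 93.6%, 93.6% and 94.9%, against 89.9%, 85.5% and 88.6% at 13038385, a mean difference of 5.99 ± 2.23. The copy 2 site was the higher one at both exon pairs in each library. At 13038678 the level was 71.5%, 57.8% and 68.1%, against 87.1%, 84.7% and 86.7% at 13038468, a mean difference of −20.3 ± 5.85. At 13038686 it was 82.1%, 75.1% and 83.5%, against 91.3%, 90.8% and 91.2% at 13038476, a mean difference of −10.9 ± 4.25. Copy 2 was therefore lower at the pairs whose surrounding sequence is identical, and its lowest value in each library was at 13038678. An exact sign-flip test over 3 libraries cannot go below p = 0.25, which each of the 4 pairs reached.

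Neighbouring sites of a copy also differed. Site 13038361, the CG found only in copy 1, was lower than 13038364, which is 3 bp away, by 10.2 to 15.9 percentage points in 3 of 3 Col-0 libraries. Site 13038678 was lower than 13038686, which is 8 bp away, by 10.6 to 17.2 points. The corresponding sites of copy 1, 13038468 and 13038476, differed in the same direction by 4.24 to 6.07 points.

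Plants with SDG2cd(H1866K)-ZF had the Col-0 profile. The copy 1 levels were 85.2%, 84.2%, 84.4% and 84.8%, and the copy 2 levels 85.8%, 83.6%, 85.0% and 85.5%. Site 13038575 was the highest and 13038678 the lowest in 4 of 4 plants, as in the 3 Col-0 libraries. Against Col-0 the largest difference was −3.85 percentage points, at 13038678, and the smallest was 0.0241, at 13038606. Adjusted p was under 0.05 at 0 of 11 sites (two-sided exact permutation test, Benjamini-Hochberg over all 101 cytosines, of which 0.0% were called), with 0 of 11 at an unadjusted p under 0.05 and 0 in a quasi-binomial model. The smallest p of 4 plants against 3 is 0.0286, and a p that misses the threshold does not show that the levels were equal.

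The matched pairs of these plants differed as in Col-0. Copy 2 exceeded copy 1 by 7.61 ± 0.403 points at 13038364 and 13038575 and by 7.37 ± 0.734 at 13038385 and 13038596 (SD, n = 4). The mean difference was −23.9 ± 2.84 points at 13038468 and 13038678 and −13.2 ± 2.18 at 13038476 and 13038686, in 4 of 4 plants for each. None of the 4 pairs separated from Col-0 (adjusted p from 0.263 to 0.511, two-sided exact permutation test of the pair difference over 23 matched cytosine pairs of any context, 0.0% of them called). In the same tests 2 of the 23 pairs had an unadjusted p under 0.05, neither of them a CG pair, and on the logit scale 0 CG pairs were called.

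The *rdr6* libraries had copy 1 at 85.9% and 86.3% and copy 2 at 83.7% and 84.9%. Their intron pairs differed by −22.2 and −23.0 points at 13038468 and 13038678 and by −14.3 and −12.8 at 13038476 and 13038686. Their exon pairs lay at 3.47 and 4.94 points (13038364 and 13038575) and at 3.75 and 6.04 (13038385 and 13038596), so both libraries had the Col-0 directions at 4 of 4 pairs.

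**Figure D2:**
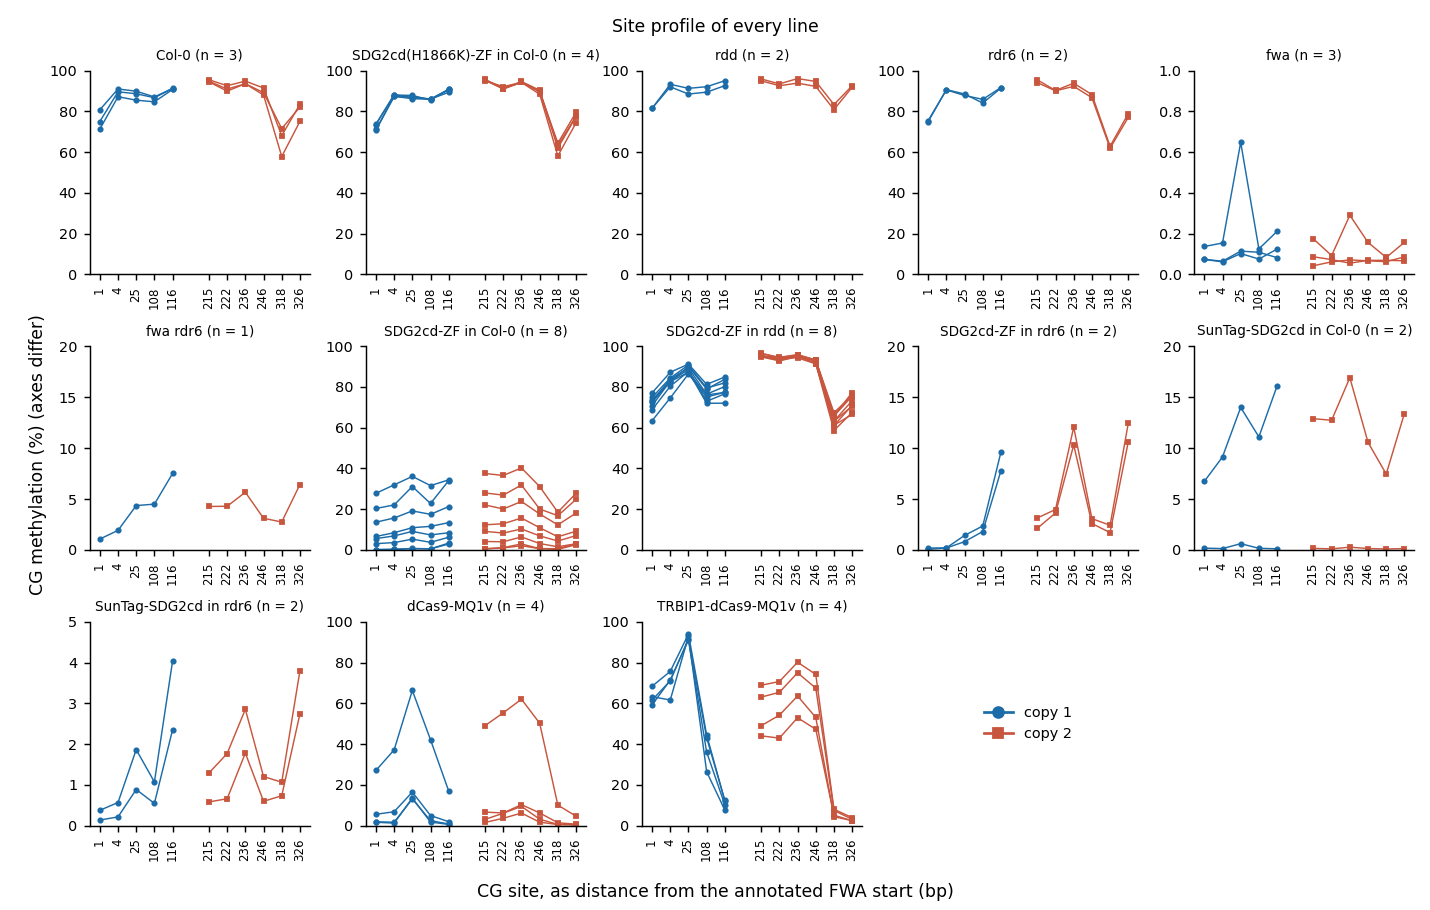
Each panel gives the level in percent at the 11 CG sites, ordered by distance from the FWA start in bp, for every line of a condition (blue copy 1, red copy 2, axes differ between panels). The dip at 318 bp recurs in Col-0, SDG2cd(H1866K)-ZF and rdr6, and the peak at 25 bp is seen in both MQ1v conditions.

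The *fwa* libraries gave the background of the assay. Copy 1 had 0.255% in the library of the first set and 0.0885% and 0.0871% in those of the second, and copy 2 had 0.159%, 0.0647% and 0.0696%. The highest site was 0.648% at 13038385 in the first-set library (Wilson 95% interval 0.587% to 0.715%) and at most 0.124% in the second set. Compared with Col-0, all 11 sites lay in ranges that did not overlap, with a share of 79.2% over all cytosines, and the differences ran from −94.8 points at 13038575 to −65.7 at 13038678. With 3 against 3, the exact permutation test cannot go below p = 0.1. The matched pairs of *fwa* differed by −0.358 to 0.0249 points.

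The single library labelled *fwa rdr6* lay above this background, with 3.87% in copy 1 and 4.42% in copy 2. Its sites ranged from 1.07% at 13038361 to 7.51% at 13038476, and the next highest were 6.42% at 13038686 and 5.66% at 13038596. Copy 2 was higher at the exon pairs, by 2.35 and 1.31 points, and lower at the intron pairs, by a difference of −1.75 and −1.09.

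In the *rdd* mutant the dip in intron 2 was shallower. Copy 1 had 88.8% and 90.6% and copy 2 had 91.1% and 92.7%, so copy 2 was higher by 2.25 and 2.04 points. On the 4 matched sites alone the mean difference was −0.605 points, so the higher level of copy 2 rested on the sites without a match. Site 13038678 had 80.9% and 83.4%, against 57.8% to 71.5% in Col-0, and 13038686 had 91.9% and 92.6%, against 75.1% to 83.5%. These were the sites with the largest differences from Col-0, 16.3 points at 13038678 and 12.0 at 13038686, while the smallest was 0.487 at 13038575. The level was higher on average at 11 of 11 sites, and at 8 of 11 the ranges did not overlap, a share close to the 63.4% of all cytosines. With 2 libraries against 3, an exact permutation test cannot go below p = 0.1.

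The intron pairs of *rdd* were accordingly closer to each other than in Col-0. Site 13038678 minus 13038468 was −8.57 and −8.76 points, above each of the 3 Col-0 values. Site 13038686 minus 13038476 was −0.728 and −2.46 points, again above every Col-0 value. The exon pairs differed by 2.62 and 2.93 points at the first and 4.80 and 5.34 points at the second. Both *rdd* libraries belong to the first set, and the one Col-0 library of that set had −15.5 and −9.21 points at the intron pairs.

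Both copies had lost most of their methylation in the 8 SDG2cd-ZF lines in Col-0, and the lines differed widely. Copy 1 ranged from 0.932% (line 6) through a median of 8.83% to 32.4% (line 15), with a mean of 12.5% ± 11.8 (SD, n = 8). Copy 2 ranged from 1.18% (line 6) through a median of 9.45% to 32.0% (line 15), with a mean of 12.6% ± 11.5. The difference copy 2 minus copy 1 lay between −1.34 and 1.57 points and was above 0 in 5 lines and below 0 in 3. From Col-0 the mean level of copy 1 fell by 73.6 points and that of copy 2 by 73.3.

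All 11 sites were lower than in Col-0 with adjusted p = 0.0340 at each (two-sided exact permutation test, Benjamini-Hochberg over 101 cytosines, 17.8% of which were called). The largest difference was −80.7 points at 13038575 and the smallest −58.2 at 13038678, the site that started lowest. Leaving out any 1 of the 3 Col-0 libraries (replicate 2 of the first set, replicate 1 or replicate 2 of the second) left 0 sites called. The smallest p of 8 lines against 2 is 0.0222, and whether it passes the adjustment depends on how many of the 101 cytosines reach it. The quasi-binomial model called 11 of 11 sites. Against the SDG2cd(H1866K)-ZF plants 11 of 11 sites were lower (adjusted p = 0.00972 at each, exact permutation test, 33.7% of all cytosines called), from −81.1 points at 13038575 to −54.3 at 13038678.

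What remained was spread unevenly over the sites. As a share of the Col-0 level, the mean over lines was highest at 13038596 (17.7%), 13038476 (17.0%) and 13038385 (16.1%) and lowest at 13038678 (11.6%). By level, the least methylated lines, 6 and 12, shared their 3 highest sites, 13038476, 13038686 and 13038596. The other lines had no common set. The highest sites of line 15 were 13038596 (40.3%), 13038575 (37.5%) and 13038582 (36.6%). Those of line 13 were 13038476 (34.0%), 13038596 (31.9%) and 13038385 (31.1%). In line 6 the level was 2.88% at 13038476, 2.56% at 13038686 and 2.06% at 13038596, against 0.204% to 0.969% at the other 8 sites. In line 12 the same 3 sites had 3.37%, 3.08% and 2.95%, against 0.123% to 1.13% elsewhere. In line 7, the next in level, 13038596 had 6.39% and 13038476 6.23%, while 13038686 was among its lowest sites with 3.02%. Across the 8 lines, the highest site was 13038596 in 5 and 13038476 in 3, and the lowest was 13038678 in 6 and 13038361 in 2. In Col-0, by contrast, 13038575 was the highest in 3 of 3 libraries.

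The matched pairs kept the directions seen in Col-0 at a lower level. Site 13038575 exceeded 13038364 in 8 of 8 lines, by 0.251 to 6.41 points with a median of 3.04 (adjusted p = 0.0120, two-sided exact sign-flip test over lines, adjusted over 23 matched cytosine pairs). Site 13038596 exceeded 13038385 in 8 of 8 lines, by 0.742 to 4.73 points with a median of 1.84. At 13038468 and 13038678 the difference ran from −13.1 to 0.125 points with a median of −4.05 and was below 0 in 7 of 8 lines, line 12 being the exception (adjusted p = 0.0200, the same exact sign-flip test). At 13038476 and 13038686 it ran from −9.21 to −0.295 with a median of −3.19 and was below 0 in 8 of 8. The 4 CG pairs called compare with 87.0% of all 23 pairs called, so the call itself does not set the CG pairs apart.

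Whether these pair differences had changed from Col-0 depended on the scale. In percentage points 0 of 4 CG pairs were called (exact permutation test, adjusted p from 0.0697 to 0.317, 0.0% of all pairs called), with 3 of 4 CG pairs and 7 of 23 pairs at an unadjusted p under 0.05. On the logit scale, which weighs a difference by the level it starts from, 3 of 4 were called, all except 13038385 and 13038596. The largest change was at 13038468 and 13038678, where the mean difference was −4.33 ± 4.20 points (SD, n = 8) against −20.3 in Col-0. Against the SDG2cd(H1866K)-ZF plants 4 of 4 CG pairs differed in points (adjusted p from 0.0116 to 0.0139, exact permutation test, 47.8% of all pairs called), by −4.48 at 13038364 and 13038575, −4.84 at 13038385 and 13038596, 19.6 at 13038468 and 13038678, and 9.64 at 13038476 and 13038686. On the logit scale 3 of these 4 were called, again all except 13038385 and 13038596. All SDG2cd-ZF lines belong to the first set and all SDG2cd(H1866K)-ZF plants to the second, so construct and set cannot be told apart here.

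**Figure D3:**
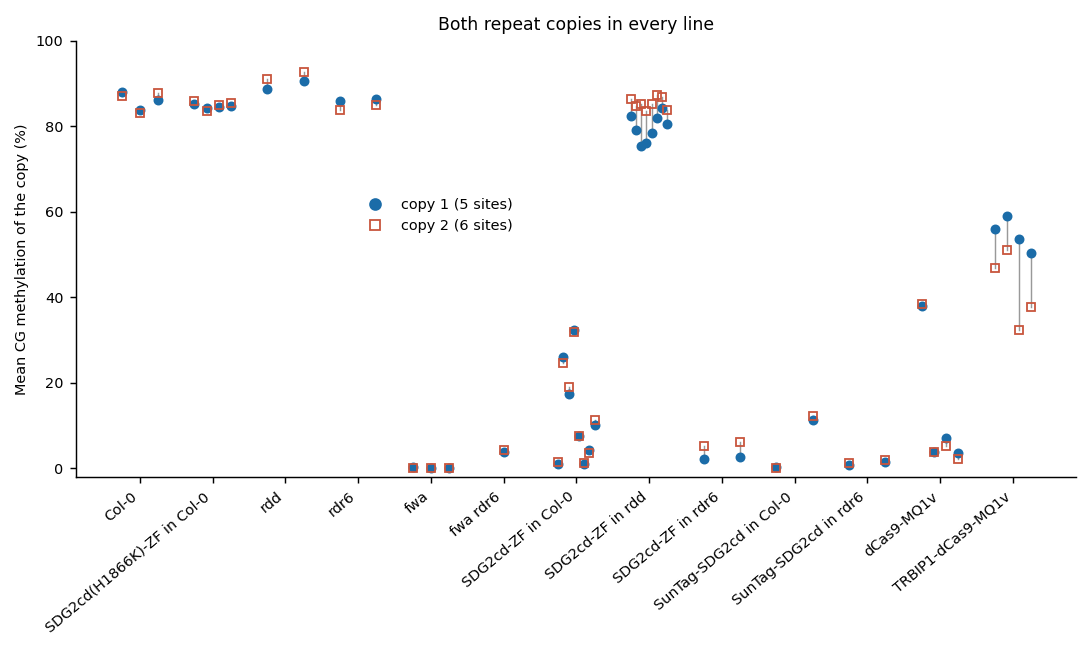
The mean CG level in percent of copy 1 (filled circles, 5 sites) and copy 2 (open squares, 6 sites) is given for every line of 13 conditions, with a grey line between the copies of a line. Copy 2 lies above copy 1 in 8 of 8 SDG2cd-ZF lines in rdd and below it in 4 of 4 TRBIP1-dCas9-MQ1v plants.

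With SDG2cd-ZF in *rdd* the repeat stayed methylated, and no site passed the adjusted test against *rdd*. Copy 1 ranged from 75.4% (line 19) through a median of 79.9% to 84.3% (line 30), and copy 2 from 83.6% (line 1) through a median of 85.2% to 87.2% (line 24). Copy 2 was higher than copy 1 in 8 of 8 lines, by 2.50 points in line 30 up to 9.93 in line 19, with a mean of 5.64 ± 2.43 (SD, n = 8). On the 4 matched sites alone the mean difference was −0.211 points, so it rested on the sites without a match. From *rdd*, copy 1 differed by −9.97 points and copy 2 by −6.47.

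The mean was below that of *rdd* at 8 of 11 sites. At 6 of them, 13038361 and 13038364 at the start of exon 1 and all 4 intron sites, 8 of 8 lines lay below both *rdd* libraries, the same share as the 54.5% of all 101 cytosines at which the groups did not overlap. Site 13038686 ranged from 66.5% through a median of 72.2% to 77.3% against 91.9% and 92.6% in *rdd*, the largest mean difference, −20.0 points. Site 13038678 ranged from 58.6% through 63.2% to 67.4% against 80.9% and 83.4%, a mean difference of −18.8. Sites 13038476 and 13038468 differed by −14.5 and −14.2 points, and 13038364 and 13038361 by −10.3 and −9.73.

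The other 5 sites, in the inner part of the exons, lay close to *rdd*. Site 13038575 ranged from 94.8% through 95.3% to 96.5%, against 94.97% and 95.9% in *rdd*, the smallest mean difference, 0.0694 points. The mean differences at 13038582, 13038596, 13038606 and 13038385 were 0.716, 0.242, −1.004 and −1.02 points. As a share of the *rdd* level these 5 sites had 98.9% to 100.8%, against 77.1% to 88.8% at the other 6.

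No site passed the adjustment in this comparison. Adjusted p was 0.0510 at the 6 lower sites and from 0.242 to 0.978 at the others (two-sided exact permutation test, 0.0% of 101 cytosines called), with 6 sites at p = 0.0222, the smallest that 8 lines against 2 allow. The quasi-binomial model called 6 sites, and leaving out line 19 brought the count in the exact test from 0 to 6.

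In percentage points the mean difference between the copies was larger in size than in *rdd* at 4 of 4 matched pairs. The test called 2 of these 4, and on the logit scale it called none. Site 13038575 exceeded 13038364 by 9.30 to 20.7 points with a median of 12.5, in 8 of 8 lines, against 2.62 and 2.93 in *rdd* (difference of the means 10.4, adjusted p = 0.0341, exact permutation test over 23 pairs, 65.2% of which were called). Site 13038678 was below 13038468 by a difference of −15.5 to −9.77 points with a median of −13.3, against −8.57 and −8.76 in *rdd* (difference of the means −4.59, adjusted p = 0.0341 in the same exact permutation test). On the logit scale 0 of 4 pairs were called (adjusted p from 0.0568 to 0.460, exact permutation test), and the change at 13038468 and 13038678 turned to 0.127 from a called negative difference in points. The pairs 13038476 with 13038686 (difference of the means −5.50, adjusted p = 0.0601, exact permutation test) and 13038385 with 13038596 (1.26, adjusted p = 0.341) were not called. Within these lines 4 of 4 CG pairs differed between the copies (adjusted p = 0.00898 at each, exact sign-flip test), against 87.0% of all pairs.

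Between the backgrounds, every site was lower in the 8 lines in Col-0 than in the 8 lines in *rdd*. The differences ran from −81.2 points at 13038575 to −55.7 at 13038678, with adjusted p = 0.000981 at 11 of 11 sites (two-sided exact permutation test, 28.7% of 101 cytosines called). Copy 1 differed by −67.3 points and copy 2 by −72.8. The change that came with SDG2cd-ZF differed between the backgrounds at 11 of 11 sites (adjusted p = 0.000923, exact permutation test of the interaction, 52.5% of all cytosines called), from −80.7 points at 13038575 to −39.4 at 13038678. Here only the 16 lines were permuted, after each control mean was subtracted, so the spread among the 3 Col-0 and 2 *rdd* libraries does not enter the p. In percentage points the pair differences were larger in *rdd* at 4 of 4 CG pairs (adjusted p from 0.000715 to 0.0486, exact permutation test, 73.9% of all pairs called), by 10.0 points at 13038364 and 13038575 and by 3.54 to 8.93 points at the others. On the logit scale 1 of these 4 calls, that at 13038364 and 13038575, was left.

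**Figure D4:**
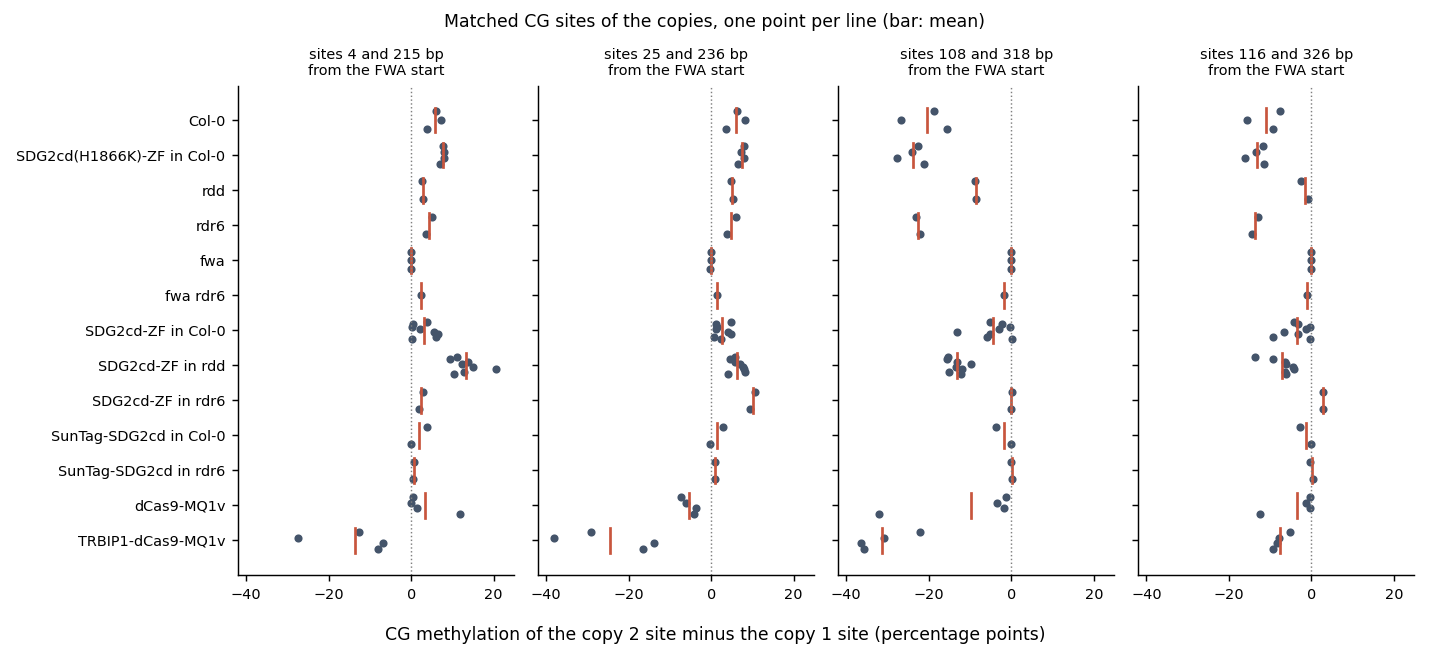
Each panel is a matched pair of CG sites, and each point is the copy 2 level minus the copy 1 level of a line in percentage points, with the mean as a red bar. The exon pairs (first and second panel) lie above 0 and the intron pairs below 0 in Col-0, SDG2cd(H1866K)-ZF, rdd and rdr6, and all 4 pairs lie below 0 in TRBIP1-dCas9-MQ1v.

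In *rdr6* the loss with SDG2cd-ZF was nearly complete, and copy 2 kept more than copy 1. Copy 1 had 2.13% and 2.75% in lines 3 and 4, and copy 2 had 5.16% and 6.18%. The level was 10.6% and 12.4% at 13038686, 10.3% and 12.1% at 13038596 and 7.79% and 9.61% at 13038476. Lines 6 and 12 in Col-0 had the same 3 sites highest, and so did the single *fwa rdr6* library, a control without SDG2cd. At the start of exon 1, 13038361 had 0.0713% and 0.181%, against 0.0731% to 0.137% in *fwa*, and 13038364 had 0.187% and 0.201%, against 0.0612% to 0.154%. As a share of the *rdr6* level, 14.8% remained at 13038686 and 0.167% at 13038361.

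Matched sites of the lines in *rdr6* did not follow the Col-0 pattern throughout. Site 13038596 exceeded 13038385 by 9.49 and 10.6 points, while the intron pair 13038476 and 13038686 differed by 2.83 points in both lines with copy 2 higher, in contrast to Col-0. At 13038468 and 13038678 the difference was −0.101 and 0.0702. Ranges did not overlap with *rdr6* at 11 of 11 sites, against 83.2% of all cytosines, and the differences ran from −92.2 points at 13038575 to −60.3 at 13038678. An exact permutation test of 2 against 2 cannot go below p = 0.333.

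With SunTag-SDG2cd in *rdr6* little methylation was left, and the same 3 sites were highest, as also in the *fwa rdr6* control library. Copy 1 had 0.825% and 1.58% and copy 2 had 1.18% and 2.00%. Site 13038686 had 2.74% and 3.80%, 13038476 had 2.35% and 4.04%, and 13038596 had 1.78% and 2.85%. The other 8 sites had 0.134% to 0.884% in the first plant and 0.374% to 1.86% in the second. Of the 4 matched pairs, the exon pairs were higher in copy 2 in both plants, by 0.368 and 0.725 points and by 0.894 and 0.990 points, and the intron pairs had no common direction. The mean was below that with SDG2cd-ZF in *rdr6* at 8 of 11 sites and above it at 13038361, 13038364 and 13038385, and the constructs were not compared by a test. All 11 sites were separate from *rdr6* (81.2% of all cytosines were), from −93.9 points at 13038575 to −61.5 at 13038678.

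SunTag-SDG2cd in Col-0 gave 2 unlike plants. The first had 0.240% in copy 1 and 0.148% in copy 2, with its highest site, 0.614%, at 13038385, as in the first-set *fwa* library. The second had 11.4% and 12.3%, with 16.9% at 13038596, 16.1% at 13038476 and 14.0% at 13038385 as its highest and 6.72% at 13038361 as its lowest. In that second plant the pairs differed by 3.75, 2.91, −3.65 and −2.70 points from the start of the repeat on, the directions of Col-0. From Col-0 the sites differed by −88.4 points (13038575) to −62.0 (13038678), with 11 of 11 separate against 56.4% of all cytosines. Leaving out the second plant moved the copy 1 difference from −80.2 to −85.8 points. Between the backgrounds of SunTag-SDG2cd the differences, from 2.87 points at 13038678 to 6.27 at 13038596, were smaller than the gap between these 2 plants. Without the second plant the copy differences turned from 4.62 to −0.964 points in copy 1 and from 4.65 to −1.44 in copy 2.

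**Figure D5:**
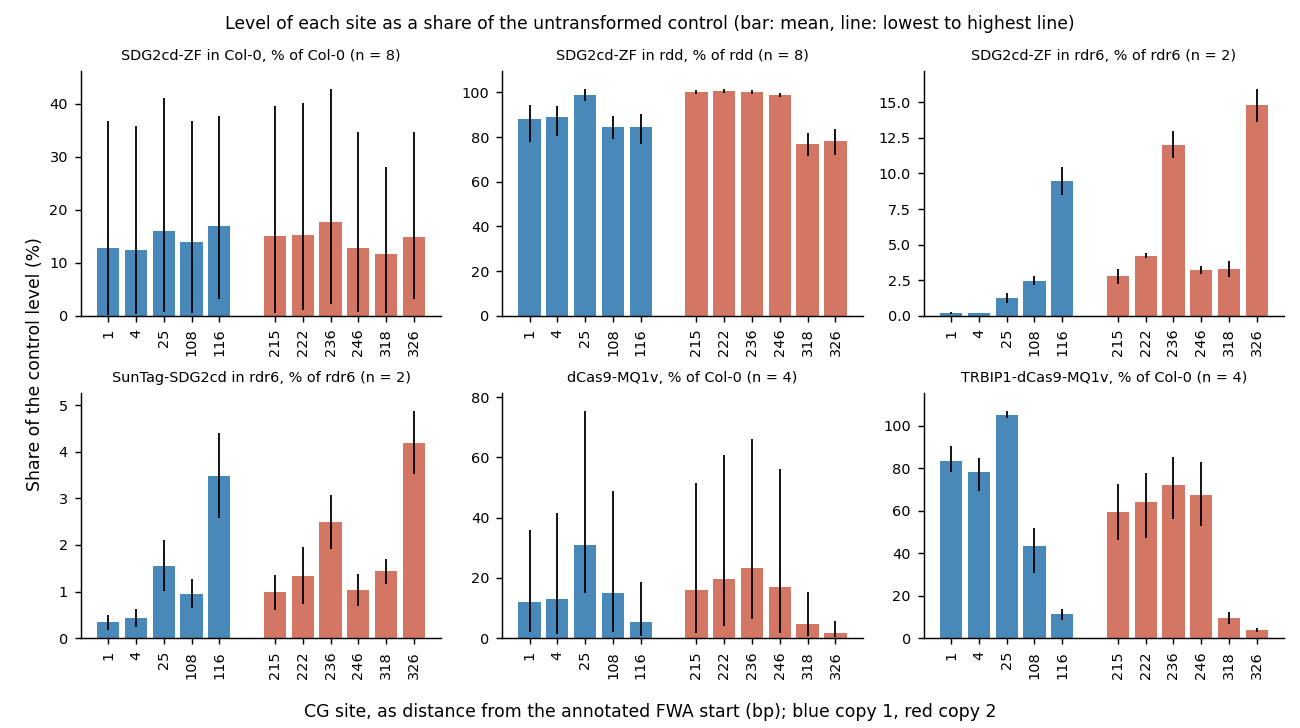
Bars (blue copy 1, red copy 2, axes differ between panels) give the mean level of each CG site as a share in percent of its mean level in the named control, for 6 conditions, and black lines run from the lowest to the highest line. In rdr6 the shares peak at 116, 236 and 326 bp, while with TRBIP1-dCas9-MQ1v the share is highest at 25 bp (105.0%) and lowest at 326 bp (3.63%).

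Plants with MQ1v constructs had a site profile unlike that of Col-0. With dCas9-MQ1v, copy 1 had 37.9%, 3.94%, 7.10% and 3.71% in plants 1 to 4 and copy 2 had 38.5%, 3.75%, 5.20% and 2.29%, so plant 1 stood apart. In 4 of 4 plants 13038385 was the highest site (66.3%, 13.1%, 16.4% and 13.5%) and 13038686 the lowest (4.59%, 0.365%, 0.660% and 0.343%). The second highest was 13038596, the match of 13038385 in copy 2, in 4 of 4 plants. Against the single *fwa rdr6* library, the background into which the construct was brought, the mean differed by 23.0 points at 13038385, the largest difference, and by 0.365 at 13038678, the smallest. Without plant 1 the difference was 1.04 points in copy 1 and −0.669 in copy 2, against 9.29 and 8.03 with it. Site by site it was then 9.97 at 13038385 and −1.94 at 13038678, and the lowest was −6.44 at 13038476. At 13038476 and 13038686 plants 2 to 4 lay at 0.558% to 1.88% and 0.343% to 0.660%, below the 7.51% and 6.42% of *fwa rdr6*. Copy 2 minus copy 1 was 11.9, 1.38, −0.174 and 0.339 points at 13038364 and 13038575 and −4.30, −3.64, −6.17 and −7.36 at 13038385 and 13038596. It was −32.1, −1.87, −3.53 and −1.20 at 13038468 and 13038678 and −12.3, −0.384, −1.22 and −0.215 at 13038476 and 13038686, so that 3 of the 4 pairs were lower in copy 2 in 4 of 4 plants.

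With TRBIP1-dCas9-MQ1v 13038385 was again the highest site and 13038686 the lowest in 4 of 4 plants, while the order between them varied from plant to plant. By the mean over plants, 13038364 ranked 2 of 11 here and 7 with dCas9-MQ1v, and 13038582 ranked 6 here and 3 there. Single plants did not all follow these ranks. In dCas9-MQ1v plant 3, 13038364 (6.76%) lay above 13038582 (6.17%), as in the TRBIP1-dCas9-MQ1v plants. In TRBIP1-dCas9-MQ1v plants 1, 2 and 4, 13038596 lay above 13038364. Copy 1 had 55.9%, 58.9%, 53.6% and 50.3% in plants 1 to 4, and copy 2 had 46.9%, 51.0%, 32.4% and 37.8%. Copy 2 was lower in 4 of 4 plants, by a mean difference of −12.7 ± 5.99 points (SD, n = 4), from −21.2 in plant 3 to −7.96 in plant 2. Site 13038385 reached 91.6%, 94.0%, 91.1% and 92.8%, above all 3 Col-0 libraries, while 13038686 had 3.08%, 3.85%, 2.30% and 2.43%. As a share of Col-0, 105.0% was reached at 13038385, 83.4% at 13038361, 78.3% at 13038364 and 72.3% at 13038596, against 11.6% at 13038476, 9.43% at 13038678 and 3.63% at 13038686.

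All 4 matched pairs were lower in copy 2 in 4 of 4 plants of TRBIP1-dCas9-MQ1v. At 13038468 the plants had 43.1%, 44.5%, 36.1% and 26.4%, and at 13038678, in the identical sequence, 7.38%, 8.02%, 5.11% and 4.32%, a mean difference of −31.3 ± 6.60 points (SD, n = 4). At 13038476 they had 12.3%, 12.1%, 10.2% and 7.59%, and at 13038686 the values above, a mean difference of −7.64 ± 1.75. The exon pairs differed by −13.7 ± 9.49 points (13038364 and 13038575) and by −24.5 ± 11.3 (13038385 and 13038596), the reverse of the direction in Col-0. With 4 plants an exact sign-flip test cannot go below p = 0.125. The neighbours 13038468 and 13038476 were also ordered the other way than in Col-0, 13038476 minus 13038468 being −32.3 to −18.9 points in 4 of 4 plants here and −25.2 to −1.15 in 4 of 4 with dCas9-MQ1v.

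Compared with dCas9-MQ1v, TRBIP1-dCas9-MQ1v had higher means at 11 of 11 sites, by 65.1 points at 13038385, the largest difference, and 1.42 at 13038686, the smallest. Plant 1 of dCas9-MQ1v nevertheless lay above every TRBIP1 plant at 13038476, 13038678 and 13038686. The plants did not overlap at 3 of 11 sites, 13038361 (difference 54.1), 13038364 (58.3) and 13038385 (65.1), against 11.9% of all cytosines. Adjusted p was under 0.05 at 0 of 11 sites (two-sided exact permutation test, 0.0% of 101 cytosines called, adjusted p from 0.201 to 0.339), with these 3 sites at p = 0.0286, the smallest that 4 against 4 allow, and 0 sites called in the quasi-binomial model. Without plant 1 of dCas9-MQ1v the difference was 49.8 points in copy 1 and 38.3 in copy 2, against 41.5 and 29.6 with it, and the smallest site difference, at 13038686, was 2.46.

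The copies also differed between these constructs, without a pair that passed the adjustment. The pair difference was lower with TRBIP1 by a mean difference of −17.1 points at 13038364 and 13038575 and −19.1 at 13038385 and 13038596 (p = 0.0286 and adjusted p = 0.0821 for each, exact permutation test, 0.0% of 23 pairs called). It was −21.6 at 13038468 and 13038678 (adjusted p = 0.131) and −4.10 at 13038476 and 13038686 (adjusted p = 0.263) in the same exact permutation test. Of all 23 pairs, 8 had an unadjusted p under 0.05, and on the logit scale 0 of 4 CG pairs were called.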

How the data were processed

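BS-PCR-seq read counts per cytosine were analysed for 47 libraries, of which 45 had a labelled background. Per the submitters' processing notes the authors used BSMAP 2.90 and TAIR10. Mapping settings for these libraries were not given apart from those for whole-genome data. The authors deposited counts of reads with C and with C or T at each cytosine, with their ratio, a fraction from 0 to 1. The deposited protocol text differs between 39 libraries (set 1) and 8 (set 2). Levels were recomputed from the counts. No other per-sample columns were present (0). Whole-genome bisulfite samples (11) were not analysed here.

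Two-sided exact permutation tests compared groups at each of 101 cytosines with at least 10 reads in every file, and sign-flip tests compared 23 aligned cytosine pairs of the copies, with Benjamini-Hochberg adjustment over all of them and a threshold of 0.05. Alternatives were a quasi-binomial model, logits (0.5 added to counts), other read minimums (1, 50, 100 and 1000), copy summaries from pooled counts, medians or matched sites, leaving out each library, and a replicate block. The statistics were tested on simulated data in which the groups compared had the same setting for the spread between lines. Unequal spreads, as between SDG2cd-ZF in Col-0 and Col-0, were not simulated. In each comparison the sites with the largest and smallest difference and all 4 matched CG pairs were named, and any other site was picked with its values known. The members and lists were chosen with earlier results of these data known. Python 3.11.15, numpy 2.4.6, pandas 2.3.3, scipy 1.17.1, statsmodels 0.14.6, Biopython 1.88 and matplotlib 3.10.9 were used.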

Additional observations from a re-analysis of the deposited data

Results flagged for a closer look

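One dCas9-MQ1v plant lay far from the other 3. Plant 1 had 37.9% in copy 1, where the others had 3.71% to 7.10%, and 38.5% in copy 2, where they had 2.29% to 5.20%. Its sites in copy 1 had 27.1% (13038361), 37.2% (13038364), 66.3% (13038385), 42.1% (13038468) and 16.9% (13038476). Its sites in copy 2 had 49.0% (13038575), 55.3% (13038582), 62.0% (13038596), 50.2% (13038606), 10.03% (13038678) and 4.59% (13038686). At each of the 11 sites its level was the far one of the group, and the sites of a library are not independent of each other.

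Among the SDG2cd(H1866K)-ZF plants, plant 2 stood apart in copy 2 minus copy 1, at −0.683 points against 0.613 to 0.691 in the others, and plant 4 at 13038596, with 94.7% against 94.2% in each of the others. Both gaps were under 1.5 percentage points. A library stood apart in this way in 15 of 70 quantities examined, 13 of them from dCas9-MQ1v plant 1, and chance marks about 1 in 20.

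The change that came with SDG2cd-ZF differed between Col-0 and *rdd* at every one of the 11 sites by the exact permutation test of the interaction given above, in which the control means are fixed. In copy 1 the change in Col-0 minus the change in *rdd* was −56.3 points at 13038361, −67.8 at 13038364, −72.9 at 13038385, −59.97 at 13038468 and −61.1 at 13038476. The exon sites of copy 2, 13038575, 13038582, 13038596 and 13038606, had −80.7, −78.02, −77.6 and −77.2 points. Its intron sites had −39.4 (13038678) and −48.2 (13038686). In both copies the intron sites differed less than the inner exon sites.

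The labels of 2 SunTag-SDG2 libraries do not name the background plant, and these entered no comparison. One had 86.6% in copy 1 and 86.6% in copy 2. The other had 77.7% and 84.3%, and in it 13038361 was at 37.1% while 13038364, which is 3 bp away, was at 87.5%.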

How the results depend on the processing

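The difference between copies depended on how a copy was summarised, since the sites of a copy differ. On matched CG sites alone, copy 2 minus copy 1 was −4.89 points in Col-0, −5.54 in SDG2cd(H1866K)-ZF, −6.77 in *rdr6*, 0.204 in *fwa rdr6*, 3.83 in SDG2cd-ZF in *rdr6*, −3.81 in dCas9-MQ1v and −19.3 in TRBIP1-dCas9-MQ1v, and it turned to −0.605 in *rdd* and −0.211 in SDG2cd-ZF in *rdd*. From pooled counts it was −1.89, −1.79 and −3.69 in Col-0, SDG2cd(H1866K)-ZF and *rdr6*, 1.07 in *rdd*, 0.235 in *fwa rdr6*, 3.14 in SDG2cd-ZF in *rdd*, 0.432 in SunTag-SDG2cd in *rdr6* and −3.39 in dCas9-MQ1v. From medians over sites it was 2.34, 3.54 and 2.48 in Col-0, SDG2cd(H1866K)-ZF and *rdd*, 14.3 in SDG2cd-ZF in *rdd*, 2.21 and 0.304 in SDG2cd-ZF and SunTag-SDG2cd in *rdr6*, 3.59 in dCas9-MQ1v and −5.56 in TRBIP1-dCas9-MQ1v, and it turned to 0.658 in *rdr6* and −0.0783 in *fwa rdr6*. In TRBIP1-dCas9-MQ1v copy 2 was lower under each of these 3 summaries.

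Of the counts of sites, SDG2cd-ZF in Col-0 against Col-0 went from 11 to 0 at an adjusted p under 0.01 and ranged from 0 to 11 when a library was left out, and SDG2cd-ZF in *rdd* against *rdd* was 6 in the quasi-binomial model and ranged from 0 to 6 when a library was left out. On the logit scale the matched CG pairs called were 3 for SDG2cd-ZF in Col-0 against Col-0, 0 for *rdd* and 1 between the backgrounds, with the difference at 13038468 and 13038678 in *rdd* turned to 0.127. A minimum of 100 or 1000 reads changed no count of sites. With Col-0 of set 1 alone, an alternative chosen after seeing the data, the interaction was called at 11 sites. Same-numbered samples did not deviate together throughout (r from −0.860 to 0.762 over 4 pairs of the MQ1v constructs). For SDG2cd-ZF in Col-0 and in *rdd* r was −0.0811 and 0.587 over 2 pairs, and for SunTag-SDG2cd it was 0.241. So few pairs cannot show whether same-numbered samples were handled together. With a replicate block, the 2 pairs shared between SDG2cd-ZF in Col-0 and in *rdd* gave −63.1 points in copy 1, −67.3 in copy 2 and 0 sites called. An exact test over 2 pairs cannot reach the threshold, so this count was fixed in advance. The block changed no other call, and 4 pairs, the most available, cannot reach the threshold either.

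With 2 or 3 control libraries, the number of libraries and not the read depth limited the tests. All SDG2cd-ZF, *rdd* and *rdr6* libraries and 1 of 3 Col-0 libraries belong to set 1, and all SDG2cd(H1866K)-ZF plants to set 2. Set and genotype therefore cannot be fully told apart. No SDG2cd-ZF library shares a set with SDG2cd(H1866K)-ZF, so these plants alone cannot tell set from construct. Col-0 was measured in both sets. Its copy 1 had 88.0% in set 1 and 83.9% and 86.2% in set 2, and its copy 2 had 87.0%, 83.2% and 87.7%. The part of the set in the difference between the constructs was not tested.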
